A study of Mus musculus with 2 samples.

Results

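The 6 genes described here encode haemoglobin chains and the first enzyme of haem synthesis in red cell precursors. They are Hba-a1, the adult alpha chain; Hbb-bt, an adult beta chain; Hba-x, Hbb-bh1 and Hbb-y, chains of the embryo; and Alas2, erythroid 5'-aminolevulinate synthase. Every probe whose RefSeq accession maps to one of these symbols was taken, which gave 10 probes for the 6 genes, of 41174 probes and 16535 genes with a symbol on the array. The genes were selected on the ASX over control log2 ratios of these same arrays, where Hba-a1 and Hbb-bt were low, so their values are given as a description with no test.

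Total RNA from the hippocampus of male C57BL/6J mice was compared between a diet with 0.5% (w/w) of a powder that holds 2% astaxanthin (ASX) and a control diet with 0% of it and placebo powder. Astaxanthin is a red carotenoid, made here by the alga Haematococcus pluvialis. Mice aged 11 weeks, of 26 to 28 g, ate standard chow for 1 week and then their diet for 4 weeks. Each of the 2 two-colour Agilent arrays carried ASX RNA and control RNA, with ASX RNA in Cy5 on array 1 and in Cy3 on array 2, and each is titled with 4 mice. Neither the way the mice's RNA was pooled nor any rinsing of blood from the vessels before dissection is given in the sources used here. The arrays were read as a dye swap of the same pair of RNAs and count as 1 replicate, so no test of the diet can be made, and an SD between the arrays is technical.

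Haemoglobin carries oxygen in red cells as a tetramer of alpha-like and beta-like chains, each holding a haem group. In the mouse embryo, primitive red cells use embryonic chains, and the adult chains replace them later. Alas2 catalyses the first and rate-limiting step of haem synthesis in red cell precursors, and young red cells that have lost their nucleus still hold globin mRNA. Adult globin mRNA has also been found in some neurons and glia of rodents.

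The adult chains and Alas2 had lower signals in the ASX RNA than in the control RNA, whereas the probes of the embryonic chains were dim or not above background. Promoters are shown because globin genes share short elements just before their start, and the letters let the adult, embryonic and Alas2 promoters be set side by side. Each run holds the 120 bases before the start of the gene, 5' to 3' on the gene's own strand, from the RefSeq promoter table of build GRCm38.p6. Capitals mark the motif CCAAT with its reverse complement, which reads ATTGG, the motif CACCC with its reverse complement, which reads GGGTG, the motif AGATAA with its reverse complement, which reads TTATCT, and the motif TATAA with its reverse complement, which reads TTATA.
Hba-a1: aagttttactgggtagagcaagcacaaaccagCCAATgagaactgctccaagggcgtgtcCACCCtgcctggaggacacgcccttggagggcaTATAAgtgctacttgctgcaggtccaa
Hbb-bt: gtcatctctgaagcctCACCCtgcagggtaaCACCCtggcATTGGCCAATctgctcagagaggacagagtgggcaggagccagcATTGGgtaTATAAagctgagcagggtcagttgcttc
Alas2: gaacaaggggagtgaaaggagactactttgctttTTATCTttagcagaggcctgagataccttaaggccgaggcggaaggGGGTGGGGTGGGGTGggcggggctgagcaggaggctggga
Hba-x: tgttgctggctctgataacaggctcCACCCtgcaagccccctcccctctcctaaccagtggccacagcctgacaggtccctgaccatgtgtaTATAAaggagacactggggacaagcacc
Hbb-y: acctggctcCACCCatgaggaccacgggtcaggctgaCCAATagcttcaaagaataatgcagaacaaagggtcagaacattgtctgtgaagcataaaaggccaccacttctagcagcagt

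These runs lie at chr11:32283552-32283671 on the plus strand for Hba-a1, chr7:103813924-103814043 on the minus strand for Hbb-bt and chrX:150547297-150547416 on the plus strand for Alas2. They lie at chr11:32276480-32276599 on the plus strand for Hba-x and chr7:103853208-103853327 on the minus strand for Hbb-y. The table held 5 of the 6 genes, and Hbb-bh1 had no entry. Hba-a1 had CCAAT from base 88, CACCC from base 60 and TATAA from base 27 before the start. Hbb-bt had CCAAT from base 75, preceded without a gap by its reverse complement ATTGG, with another ATTGG from base 36. It had CACCC from bases 104 and 89, and TATAA from base 28. Hba-x held CACCC and TATAA without CCAAT, and Hbb-y held CACCC and CCAAT without TATAA. Alas2 held AGATAA in the opposite orientation from base 86 and 3 adjoining copies of GGGTG, and neither CCAAT nor TATAA. Of 32851 promoter windows of the same length, the motif CCAAT was in 21.3%, the motif CACCC in 31.7%, the motif TATAA in 11.8% and the motif AGATAA in 4.36%, on either strand. The first 3 of these motifs together were in 0.688% of windows, as they were in Hba-a1 and Hbb-bt. A match of letters is not a shown binding site. Only the exact letters of each motif were searched, so variants are unmarked, and a promoter without a motif may still hold a variant of it. Hba-a1 has a near-identical neighbour, Hba-a2, whose 120 bases match it at 117 of 123 aligned positions (95.1%). The remaining positions are unpaired ends, because the windows are slightly shifted, and no paired base differs. Hbb-bt has a neighbour, Hbb-bs, whose 120 bases match it at 91 of 122 aligned positions (74.6%). No probe carried an accession of Hba-a2 or Hbb-bs, and the files hold no probe sequences. The signals of Hba-a1 and Hbb-bt may include these copies, which was not tested. The promoter match does not bear on this, since no transcript or probe sequences were compared.

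The adult alpha chain was 27.4% lower in the ASX RNA than in the control RNA in the mean of the arrays, with almost the same ratio on each. In RNA of a whole tissue, fewer red cells and less globin RNA in each cell cannot be told apart. Values are intensities after background correction and normalization within and between the arrays, in arbitrary units that include an offset of 50, and they compare the RNAs on 1 probe, not different probes. The Hba-a1 probe A_52_P278538 read 2756 in the ASX RNA on array 1 and 2758 on array 2, against 3774 and 3821 in the control RNA. Both ASX values lay below both control values, which is a description only, since the gene was chosen for its low ratio here. All probes separated in this way lie within the 23.4% of measured probes with a negative ratio on each array. The log2 ratio of ASX over control was -0.45 on array 1 and -0.47 on array 2, a mean of -0.46 with an SD of 0.012 between the arrays, that is 0.726 of the control level.

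The adult beta chain was read by 4 probes, and each had lower values in the ASX RNA on both arrays. Probe A_51_P374476, the brightest, read 5206 and 5730 in the ASX RNA, against 8586 and 7263 in the control RNA. Probe A_52_P213909 read 3589 and 3439 in the ASX RNA, against 4577 and 4402 in the control RNA. Thus neither probe had overlapping values between the RNAs, although the gap on A_51_P374476 was wider on array 1. Probe A_52_P260346 read 2261 and 2337 in the ASX RNA, against 3636 and 3108 in the control RNA. Probe A_51_P374468, the dimmest, read 1407 and 1441 in the ASX RNA, against 2292 and 2065 in the control RNA. Here too every ASX value lay below every control value of the same probe. Like Hba-a1, this gene was chosen for low ratios on these arrays, so the separation is a description only. The share of all measured probes separated in this way is not given. It lies within the 23.4% that had a negative ratio on each array.

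The 4 Hbb-bt probes differed among themselves in the size of the ratio and not in its direction. Mean log2 ratios were -0.61 for A_51_P374468, -0.55 for A_52_P260346, -0.53 for A_51_P374476 and -0.35 for A_52_P213909. Their mean was -0.51 ± 0.11 (SD over 4 probes of 1 gene, which share the same RNA), or 0.702 of the control level, 29.8% lower. The probes averaged -0.62 ± 0.18 on array 1 and -0.41 ± 0.08 on array 2, and A_52_P213909 alone had almost the same value on both, -0.35 and -0.36. Among 170 genes with at least 4 measured probes, the median SD over probes of the mean log2 ratio was 0.073, and 18.2% had a larger SD than Hbb-bt. The Hba-a1 ratio differed from the Hbb-bt mean by 0.050 on the log2 scale, less than the SD over the Hbb-bt probes.

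**Figure D1:**
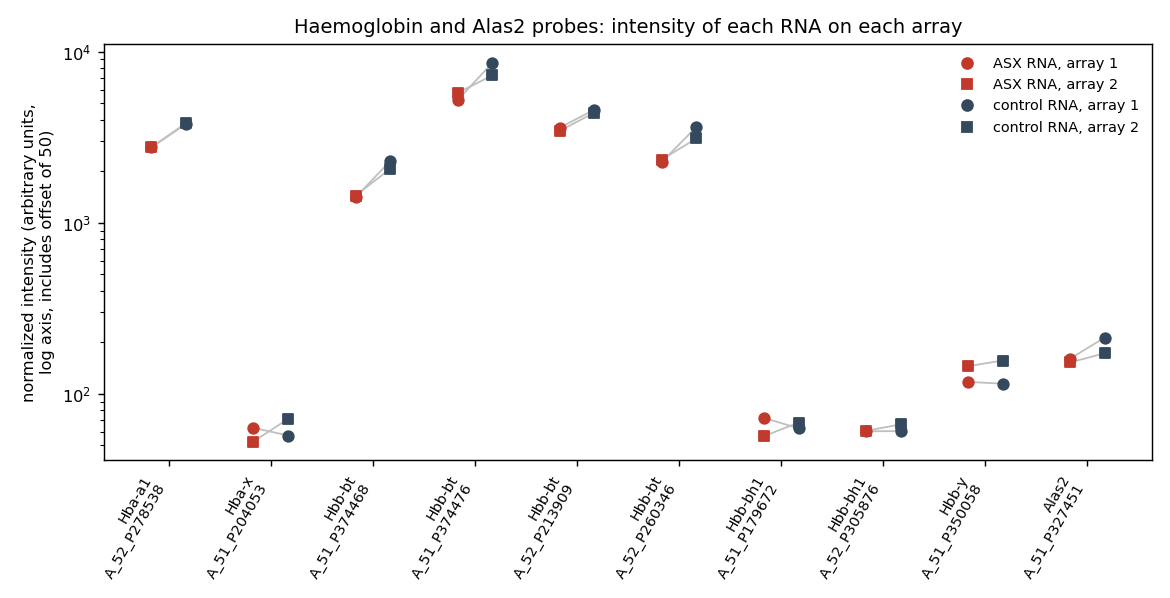
Normalized intensity (arbitrary units, log axis, offset of 50 included) of the 10 probes in the ASX RNA (red, left of each pair) and the control RNA (dark, right), with circles for array 1, squares for array 2 and a grey line joining the RNAs of an array. The 5 probes of Hba-a1 and Hbb-bt slope upward toward the control RNA on both arrays, and the probes of Hba-x and Hbb-bh1 lie near the offset.

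Alas2 had the direction of the adult chains at a much dimmer signal. Its probe A_51_P327451 read 160.4 and 152.5 in the ASX RNA, against 213.1 and 172.5 in the control RNA. The RNAs did not overlap, but the ASX value of array 1 and the control value of array 2 lay close together. As above, the share of all probes separated in this way is not given, and it lies within the 23.4% with a negative ratio on each array. Whether the separation is unusual can therefore not be told. The log2 ratio was -0.41 on array 1 and -0.18 on array 2, with a mean of -0.29 and an SD of 0.16, or 0.816 of the control level. With the scanner software's own log ratios, which carry no offset, Alas2 had -0.61 on array 1 and -0.35 on array 2, with a mean of -0.48, and the software's errors for these ratios were 0.217 and 0.219 on the log2 scale. For the adult globin probes that error lay between 0.207 and 0.215.

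Of the embryonic chains, Hbb-y alone was well above background in each RNA on each array. Its probe A_51_P350058 read 117.3 and 144.9 in the ASX RNA, against 114.5 and 156.4 in the control RNA. The RNAs overlapped, with log2 ratios of 0.035 and -0.11. The probe of Hba-x, which encodes the embryonic zeta chain, and both probes of Hbb-bh1, an embryonic beta-like chain, were not well above background for either RNA on either array, so no ratio is read from them. Their intensities ranged from 52.6 to 72.3, and the offset makes up 50 of that. The ratio of Hbb-y had opposite signs on the arrays, and its mean, -0.038, was 0.040 with each array centred on its median.

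**Figure D2:**
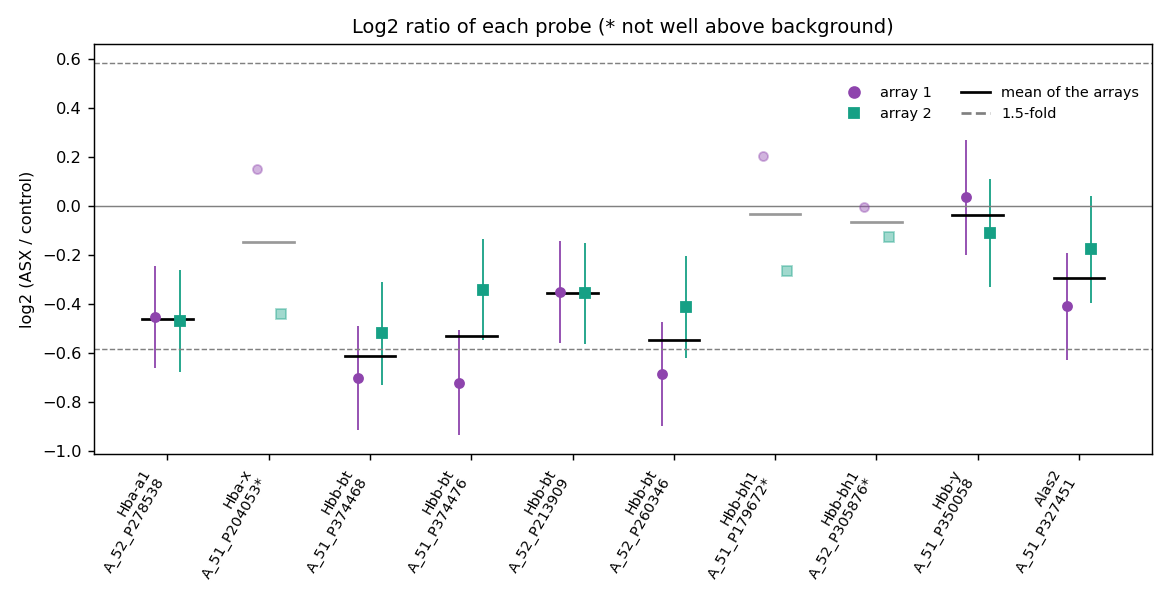
Log2 ratio of ASX over control for each probe on array 1 (circles) and array 2 (squares), with the mean as a black bar; vertical lines are the error that the scanner software gives for its own log ratio of the spot, which has no offset and is not the ratio plotted, dashed lines mark 1.5-fold, and pale symbols with a star in the label were not well above background. The 5 adult globin probes lie between -0.72 and -0.34 on both arrays.

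The call rule asked for a 1.5-fold difference, in 1 direction, on array 1 and again on array 2. None of the 7 measured member probes passed, in either direction, while 0.0166% of the 30071 measured probes were lower and 0.0499% higher. By gene, 5 genes and transcripts of 23597 were lower (0.0212%) and 15 higher (0.0636%), so 75% of the calls were higher. That share was 85.5% with the scanner's log ratios, 50% with median centring and 9.76% with centring on spike-in RNAs. With median centring 4 member probes were lower by the rule, as were 0.0532% of all probes, and with spike-in centring 5 were, as were 0.15%. On array 1 alone, 3 of the Hbb-bt probes were at least 1.5-fold lower, beside 0.113% of all probes, and on array 2 alone none was, beside 0.17%. With a milder rule, chosen after the data were seen, of 0.32 on the log2 scale on each array, the 5 adult globin probes were lower and the other 2 measured members were not, while 0.18% of all probes were lower. By that milder rule 0.182% of all genes and transcripts were lower and 0.797% higher. Of the 7 measured member probes, 6 had a negative ratio on each array, beside 23.4% of all probes, and the exception was Hbb-y. Since the adult chains were chosen for low ratios, these counts say where they lie and no more.

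In the order of all measured probes by mean log2 ratio, the 5 adult globin probes held places 8, 14, 15, 28 and 76 from the lowest of 30071, and Alas2 held place 147. By gene, through the brightest probe, Hbb-bt was in place 12, Hba-a1 in place 22, Alas2 in place 119 and Hbb-y in place 8330 of 23597. Of all genes and transcripts, 96.3% differed by less than 1.2-fold, and their median was -0.0042. The Pearson correlation of the log2 ratios between the arrays was -0.029 across genes and transcripts, which are not independent replicates. The median SD between arrays was 0.11. For the 193 measured probes spotted 10 times, the SD of the mean ratio from spot to spot had a median of 0.033. Compared only with measured probes within 0.5 log2 units of the same brightness, a comparison added after the data were seen, the adult globin ratios lay between -0.70 and -0.33 on single arrays.

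**Figure D3:**
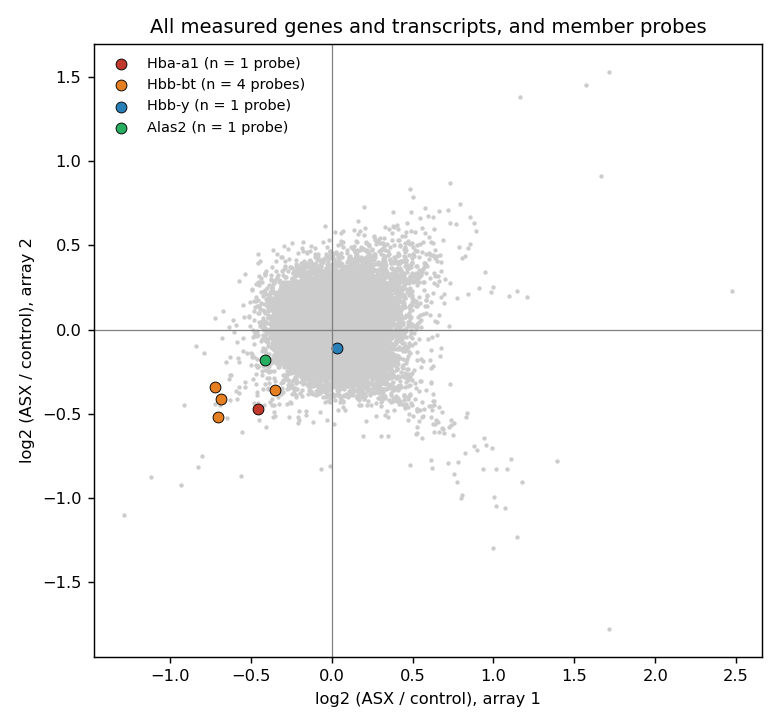
Log2 ratio of ASX over control on array 1 (horizontal) and array 2 (vertical) for 23597 measured genes and transcripts (grey) and for the 7 measured member probes (coloured). The probes of Hba-a1 and Hbb-bt lie in the lower left, at the edge of the cloud or outside it; Alas2 lies at its edge and Hbb-y inside it.

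The other enzymes of haem synthesis, which cells of all kinds use, lay close to equal levels. All 8 were measured, 0 passed the rule in either direction, and their median was -0.05 beside -0.0042 over all genes and transcripts. It was -0.19 on array 1 and 0.085 on array 2. Alas1, the form of the first enzyme made outside red cells, had -0.18 and 0.11. Uros, uroporphyrinogen III synthase, had the lowest mean, -0.22, from -0.31 and -0.13, and Alad, which joins aminolevulinate into porphobilinogen, had -0.11, from -0.16 and -0.066. These were the 2 members with a negative ratio on each array, beside 23% of all genes and transcripts, and none had a positive ratio on each. Cpox, Urod, Fech and Ppox had means between -0.14 and 0.0027, with opposite signs on the arrays. Fech, which inserts iron into the ring, had -0.22 and 0.097.

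The other globins lay on both sides of 0, with a median of -0.045 over 4 measured and 0 past the rule. Cygb, cytoglobin, had log2 ratios of 0.31 on array 1 and -0.43 on array 2, and Ngb, the neuronal globin, had 0.35 and -0.17, so both had the higher signal in Cy5 on each array. The theta-like Hbq1a and Hbq1b, which sit in the alpha cluster, had -0.018 and -0.037, and -0.079 and -0.26. Mb, myoglobin, was not well above background in each RNA on each array, and Hba-a2, Hbb-bs, Hbb-b1, Hbb-b2 and Hbb-bh2 had no probe matched by accession.

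Genes that mark red cells and their precursors lay on both sides of 0. Of 34 listed, 32 were on the array and 22 were measured, 0 passed the rule, and the median was 0.0035, with 4 genes negative on each array and 6 positive on each, beside 23% and 22.2% of all genes and transcripts. The defining genes Klf1, Nfe2, Epb42, Hemgn, Rhag, Rhd, Kel and Xk were among those not well above background in each RNA on each array. Gata1, the erythroid transcription factor, had -0.015 and -0.11, and Slc4a1, the red cell anion exchanger, had 0.24 and -0.18. The largest mean ratios were 0.20 for Aqp1, -0.19 for Add2, -0.15 for Ermap and 0.12 for Car1. Aqp1, a water channel that choroid plexus also makes, and Car1, a carbonic anhydrase of red cells, were above 0 on both arrays. Add2, beta-adducin, which neurons also make, and Ermap, an erythroid membrane protein, were below 0 on both. Summed over the 22 genes, the normalized intensity was 132723 and 129823 in the ASX RNA, against 134454 and 129702 in the control RNA.

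Genes of haem and iron handling had a median of -0.044 over 27 measured of 30 listed, with 0 past the rule, 5 below 0 on both arrays and 4 above, beside 23% and 22.2% of all genes and transcripts. Slc25a38, the mitochondrial carrier that brings in glycine for haem synthesis, had -0.24 on each array. Ireb2, an iron-sensing regulator of mRNAs, had 0.19 and 0.32 on its brightest probe, and a mean of 0.10 on another. Fth1, the ferritin heavy chain, had 0.94 and -0.64, and Blvrb, biliverdin reductase B, had -0.34 and 0.089, so their signs differed between the arrays. Hmox1, the inducible enzyme that breaks down haem, had 0.10 and -0.21.

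Among neutrophil markers 4 of 12 were measured, and S100a9 and S100a8, calcium-binding proteins abundant in neutrophils, passed the rule as higher, with mean log2 ratios of 1.27 and 0.65. Mpo, the granule enzyme myeloperoxidase, had 0.097 and Mmp9, a matrix protease, 0.067, while Lcn2, Ngp, Camp, Elane, Ltf, Mmp8, Retnlg and Cxcr2 were not well above background in each RNA on each array. The summed intensity of the 4 was 771 and 795 in the ASX RNA, against 486 and 479 in the control RNA. Among platelet markers 5 of 9 were measured, with a median of -0.14, 0 past the rule and 3 below 0 on both arrays, beside 23% of all genes and transcripts, namely Gp9 at -0.24, Gp5 at -0.17 and Pf4 at -0.07 in the mean. The platelet median was -0.0063 on array 1 and -0.14 on array 2. Their summed intensity was 1345 and 1285 in the ASX RNA, against 1380 and 1412 in the control RNA. The 6 measured lymphocyte markers had a median of -0.02, with 0.068 on array 1 and -0.11 on array 2. Over all 33 leukocyte and platelet genes, 16 were measured, with a median of -0.01. The part of these cells in the globin ratios was not tested.

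Of the other cell types, hippocampal neuron markers were all 10 measured, with a median of 0.039, and the largest means were 0.12 for C1ql2, -0.086 for Wfs1, 0.079 for Prox1, of dentate granule cells, and 0.07 for Camk2a. Endothelial and pericyte markers had a median of -0.03 over 12, with Pdgfrb at 0.23, Cldn5 at -0.20, Vwf at 0.15 and Slco1a4 at 0.11. Markers of meningeal fibroblasts had a median of 0.20 over 10, of which 7 were above 0 on both arrays, beside 22.2% of all genes and transcripts, and 0 below. Markers of choroid plexus, a vascular tissue next to the hippocampus, had -0.13 over 7, of which 6 were below 0 on both arrays, beside 23% of all genes and transcripts, with Calml4 at -0.31 and Otx2 at -0.19. The choroid plexus gene Ttr, transthyretin, was above 0 on both arrays, with 0.084 and 0.12. Oligodendrocyte and astrocyte markers, 6 each, had medians of -0.05 and -0.041. No member of these lists passed the rule, and their part in the globin ratios was not tested.

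**Figure D4:**
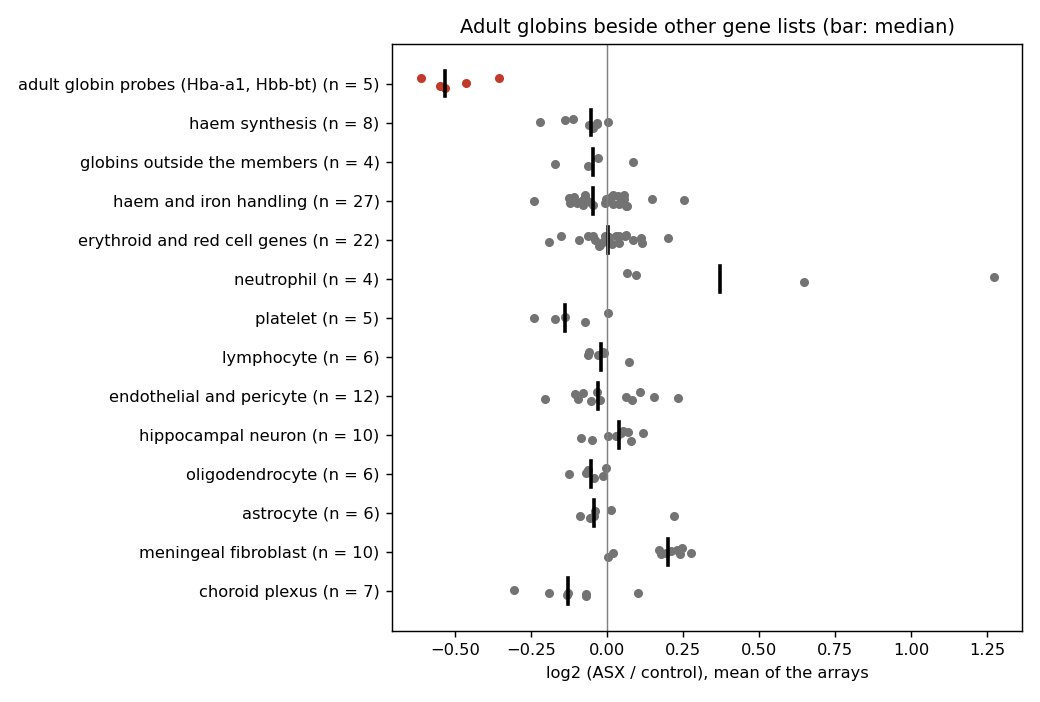
Mean log2 ratio of ASX over control for the 5 adult globin probes (red) and for the measured genes of 13 lists (grey, 1 point per gene), with black bars at the medians. The adult globin probes lie between -0.61 and -0.35, below every gene of these lists.

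The genes whose pair of ratios lay nearest to the mean point of Hba-a1 and Hbb-bt (-0.59 on array 1 and -0.41 on array 2) were Fam216b, Tnnt1, Ido1, Arhgap25 and Slc10a4. Likeness was the straight-line distance between log2 ratios over the 2 arrays, and 13311 genes with a symbol were ranked. Fam216b had -0.63 and -0.42, at a distance of 0.041. Tnnt1, a troponin of slow muscle, had -0.57 and -0.34, and Ido1, a tryptophan-degrading enzyme, had -0.69 and -0.45. Arhgap25, a GTPase-activating protein, had -0.64 and -0.29, and Slc10a4, a carrier of synaptic vesicles, had -0.65 and -0.52. These genes were dimmer than the adult globins, so the offset makes up more of their signals. Mean log2 intensity ran from 7.01 for Ido1 to 9.54 for Arhgap25, against 11.66 for Hba-a1 and 12.68 for the brightest Hbb-bt probe. Alas2 held place 50 with a distance of 0.29. In all, 11 genes lay within 0.2 of the point. The list of 5 depended on the processing, and with an offset of 16 only 1 of them was among the 5 nearest.

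The direction of the adult chains held under each alternative tried. All 60 values of the 5 probes, over 10 settings with both arrays and over each array alone, were below 0. These values are not separate checks. Dropping or loosening the filter on dim probes, or keeping the spots marked as outliers, left the value of each probe unchanged. The deposited values gave the same ratios as the scanner software. The probes were also chosen for low ratios on these arrays, so the count of 60 describes the processing and is no test. With both arrays the values ran from -0.86 to -0.46 for Hba-a1, and over the Hbb-bt probes from -0.99 to -0.35. Median centring and spike-in centring, which gave the values farthest from 0, moved the median of all genes and transcripts to -0.10 and -0.31, and the Hba-a1 mean was then -0.66 and -0.86. The largest array-to-array gap was that of A_51_P374476, with -0.72 on array 1 and -0.34 on array 2.

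**Figure D5:**
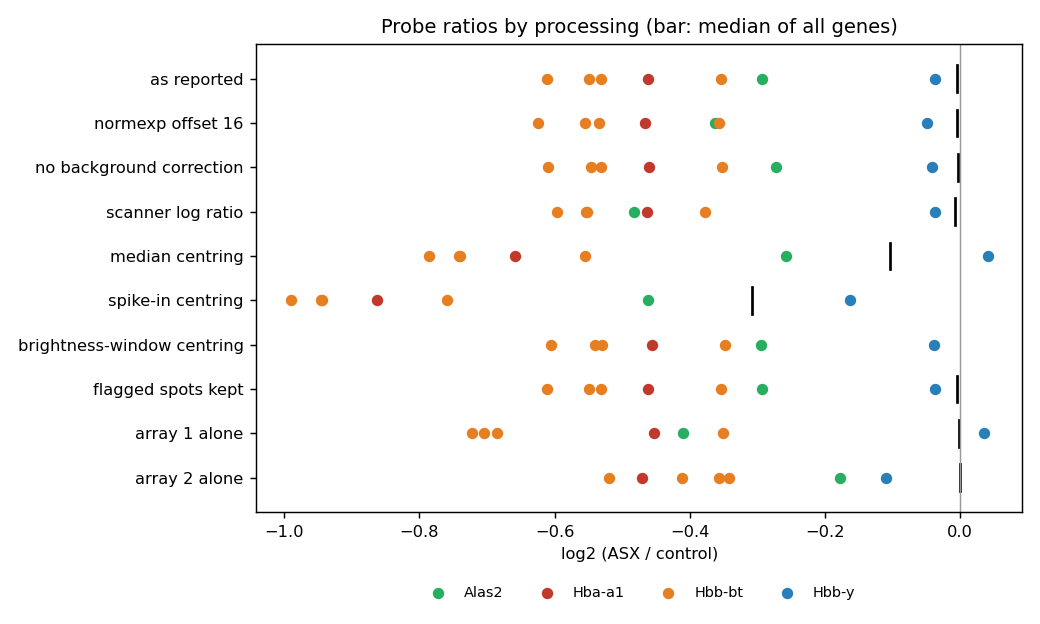
Log2 ratio of ASX over control of the 7 measured member probes under 10 ways of processing (rows, as reported at the top), with the median of all genes and transcripts as a black bar where it was computed. The adult globin probes lie left of that bar in each row that has one.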

How the data were processed

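The submitters' processing notes and the headers name Agilent Feature Extraction 11.0.1.1 for reading the scans. Per the file headers, the intensity deposited for each spot is a pixel median in each channel, without normalization. The deposited log10 ratio (Cy5 over Cy3) came from signals that the scanner software had background-subtracted and dye-normalized, per the file headers. The deposited value table held the same log10 ratios, not turned for the dye swap.

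From these, limma 3.58.1 (R 4.3.3) gave normexp background correction with an offset of 50 and a loess fit within each array, in which control spots had weight 0. Intensities per RNA were also scaled between arrays (Aquantile). Every ratio was expressed as log2 of ASX over control, and repeated spots of 1 probe were averaged. The 3 spots marked as non-uniform outliers were left out, and 0 were saturated. ASX RNA was well above background at 77.8% and 76.7% of spots, and control RNA at 78.2% and 75.8%. The number of arrays limits the precision.

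Symbols came from RefSeq accessions (GRCm38.p6), which 23374 of 41174 probes matched. A probe was measured when ASX and control RNA were both well above background on each array (30071 probes), and a gene took its brightest measured probe. The code was tested on simulated data. Alternatives are given below; mean spot signal could not be used in place of the median.

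Named were all members, the genes of the haem synthesis and globin lists, from other lists those past the rule and the 4 with the largest absolute mean, and the 5 nearest genes. In places other list genes are named, chosen after their values were seen, and some list genes are counted but not reported here by name. Members and lists were chosen with earlier results of these data known.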

Additional observations from a re-analysis of the deposited data

How the results depend on the processing

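The median of the 7 measured member probes, -0.46, was -0.66 with median centring and -0.86 with spike-in centring, and -0.45 and -0.36 on arrays 1 and 2 alone. Lower member probes numbered 4 with median centring, 5 with spike-in centring, 5 with the milder rule of 0.32 log2 units and 0 to 3 on single arrays, against 0. Of 84 probe values under alternatives, 2 changed sign, both of Hbb-y: 0.040 with median centring and 0.035 on array 1 alone (-0.11 on array 2). Some of the 84 could not change, since the filter on dim probes and the spots marked as outliers did not affect the member probes measured. Over all genes and transcripts, 15 were higher and 5 lower. The higher counts were 28 (offset 16), 71 (scanner log ratio and value table), 4 (spike-in centring), 188 (milder rule) and 36 to 137 (single arrays). The lower counts were 12 (scanner log ratio, value table and median centring), 37 (spike-in centring), 43 (milder rule) and 28 to 47 (single arrays). Of the 5 nearest genes, 1 was kept with offset 16, 2 with the scanner log ratio, value table, median centring and spike-in centring, and 0 to 1 on single arrays.

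With median centring and spike-in centring, list medians were -0.26 and -0.47 for haem synthesis, -0.18 and -0.38 for haem and iron handling, -0.14 and -0.34 for red cell genes and 0.045 and -0.16 for leukocyte and platelet genes. Without background correction the last 2 were -0.0028 and 0.0057. The red cell median was 0.013 with the scanner log ratio and value table, 0.010 without a filter and -0.011 with the mean over probes. On single arrays, medians ran from -0.19 to 0.085 for haem synthesis, -0.22 to 0.14 for other globins, -0.018 to 0.017 for haem and iron handling, 0.014 to 0.022 for red cell genes and -0.055 to 0.056 for leukocyte and platelet genes. The cause was not tested. With 1 replicate, no spread between animals is known. Alas2 and Hbb-y had dim signals, of which the offset makes up a larger part than for the adult chains. With an offset of 16 the Alas2 mean was -0.36 in place of -0.29, and the Hba-a1 mean was -0.47 in place of -0.46. The SD between arrays was 0.16 for Alas2 and 0.10 for Hbb-y, within the range of the adult globin probes, 0.0038 to 0.27.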
